A study of Mus musculus with 2 samples.

Results

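Collagen genes were taken as every gene in the count table whose mouse symbol reads Col, digits, a, digits and that held at least 1 count. The rule found 40 genes among 33757 features with counts. Of these, 11 encode chains of fibrillar collagens, 6 encode the chains of type IV collagen, the collagen of basement membranes, and 23 belong to other types. The genes were measured in single NIH3T3-Rev-VNP1-H2B-iRFP cells by FLASH-seq, which sequences cDNA along the whole transcript. This line derives from NIH3T3 mouse embryonic fibroblasts, an immortalized line, and carries a Venus reporter of Nr1d1, a transcriptional repressor in the circadian clock, as well as an H2B histone tagged with iRFP, a near-infrared fluorescent protein. Every cell carried both reporters and came from a nearly confluent culture that had not been synchronized, so no group lacked the reporters and none was treated. Whether the line is 1 clone is not given in the sources used here. Single cells were sorted into 4 gates of rising Venus fluorescence, called gates 1 (dimmest) to 4 (brightest) here, and the question addressed was how the collagen transcripts followed this clock reporter. The series holds 2 samples, each a plate of 384 cells. Plate 1 held only the high iRFP sort and plate 2 only the low iRFP sort, so plate and iRFP sort cannot be told apart. A gate took up 6 well columns, the same ones on each plate, so gate and position on the plate cannot be told apart either.

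A collagen is a triple helix of alpha chains, and each chain is the product of its own gene. Fibrillar collagens assemble into the cross-striated fibrils that carry tension in connective tissue, and fibroblasts are their main source. Type IV collagen forms the mesh of basement membranes, type VI collagen forms beaded filaments close to cells, and fibril-associated collagens decorate the surface of fibrils. Pro-alpha chains are hydroxylated and folded in the endoplasmic reticulum, then secreted, trimmed by proteinases and crosslinked by lysyl oxidases.

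The filter on cells kept 762 of 768, with 151173 to 1618022 counts each, and counts of the kept cells were summed per plate and gate. The 8 sums held 76042157 to 86612194 counts from 94 to 96 cells. Median Venus fluorescence rose from 65132 intensity units in gate 1 to 3448792 in gate 4 on plate 1, and from 64611 to 3152412 on plate 2. Of 11 fibroblast markers, 10 had a mean of at least 10 CPM (counts per 1e6 counts of a sum), and Lum was the exception at 0.241 CPM. Col1a1, Col1a2 and Col3a1 were among the 10, and as collagens they give the fibroblast label no separate support. Thy1 and Dcn had counts in 51.8% and 69.2% of cells, and the rest of the 10 in at least 99.08%. Of other lists, Sox9 had counts in 100% of cells and Krt14 in 72.7%. The summed endothelial, immune and adipocyte markers had means of 0.596, 0.356 and 0.111 CPM. Single genes of other lists were present, among them Acta2 at 155 CPM, Krt14 at 33.6 CPM, Sox9 at 449 CPM and Runx2 at 21.0 CPM, while Epcam, Krt18, Myh11 and Sp7 were at or under 0.030 CPM. Their part in the collagen results was not tested.

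Promoter sequences from RefSeq (GRCm38.p6) were at hand for 32 of the 40 genes, as 34 windows running from 250 bases before to 50 bases after a start site. Among genes with at least 10 CPM, Col1a1, Col5a2 and Col12a1 had no window and were not searched. They were searched on both strands for 3 elements found in clock genes, since the cells were sorted on a clock reporter, and for common promoter elements. The E-box CACGTG was in 0 of 34 collagen windows, against 7.15% of all 32851 windows, and the D-box TTANGTAA was in 0 of 34, against 2.32%. The nuclear receptor element AGGTCA was in 7 of 34 windows, against 16.3%, and Col11a1 was the only gene with at least 10 CPM among them. The GC box GGGCGG was in 22 of 34, against 35.7%, CCAAT was in 12 of 34, against 37.4%, and TATAAA was in 5 of 34, against 13.6%. A match is only a description of the letters, and a missing match says only that these letters were not in the window. The windows of Col1a2, Col11a1 and Col8a1 are printed because the transcripts of these 3 genes correlated across cells, and the CCAAT sites of Col1a2 and Col4a1 because each gene had a high correlation with the partner chain of its helix. Capitals mark GC boxes and CCAAT letters on either strand, and sequence annotated as an exon in GENCODE M21 was left out of the windows.
Col1a2, chr6:4505370-4505492, plus strand: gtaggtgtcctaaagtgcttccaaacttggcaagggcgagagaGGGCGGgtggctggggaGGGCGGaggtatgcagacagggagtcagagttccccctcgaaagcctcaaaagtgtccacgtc
Col1a2 CCAAT site, chr6:4505499-4505523, plus strand: aagaatggaaCCAATttaagaagcc
Col11a1, chr3:114030290-114030539, plus strand: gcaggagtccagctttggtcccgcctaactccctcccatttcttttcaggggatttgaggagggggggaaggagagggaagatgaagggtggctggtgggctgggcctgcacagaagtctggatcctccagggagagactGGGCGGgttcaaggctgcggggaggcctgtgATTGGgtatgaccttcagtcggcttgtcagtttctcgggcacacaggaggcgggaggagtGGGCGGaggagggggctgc
Col8a1, chr16:57754738-57754987, minus strand: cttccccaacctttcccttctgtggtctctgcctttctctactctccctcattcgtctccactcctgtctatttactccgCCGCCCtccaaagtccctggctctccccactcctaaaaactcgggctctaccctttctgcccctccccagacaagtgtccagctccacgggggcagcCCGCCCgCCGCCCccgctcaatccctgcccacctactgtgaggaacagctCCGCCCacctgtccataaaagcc
Col4a1 CCAAT site, chr8:11312957-11312981, minus strand: cttgcccgggATTGGcgagccaagg
The printed Col11a1 window held 2 GC boxes and 1 CCAAT, the Col8a1 window held 4 GC boxes and no CCAAT, and the Col1a2 window held 2 GC boxes.

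Collagen transcripts made up 1.64% to 2.13% of all counts in the 8 sums, and type I collagen dominated them. Fibrillar chains took 81.0% of collagen counts, type IV chains 3.76% and the other types 15.3%, and Col1a1 with Col1a2 alone took 66.6%. A mean of at least 10 CPM was reached by 17 genes, and the other 23 lay below it. Per kilobase of exon, the order of mean levels was Col1a1 at 1287 CPM per kb, Col1a2 at 352, Col6a1 at 243, Col3a1 at 122, Col5a2 at 94.2, Col6a2 at 93.1, Col6a3 at 59.1 and Col5a1 at 41.8. Col16a1 at 39.7, Col4a2 at 39.2 and Col4a1 at 36.9 CPM per kb lay close together, followed by Col4a5 at 23.1, Col11a1 at 21.6 and Col8a1 at 11.5. Col5a3 at 4.21, Col4a6 at 4.13 and Col12a1 at 1.18 CPM per kb closed the order. The length was that of all annotated exons of a gene merged, such as 12.4 kb for Col1a2 and 4.38 kb for Col6a1. It may exceed the length of the transcript made, so the order depends on the length used. By CPM alone, Col3a1 at 1199 lay above Col6a1 at 1063. The neighbours Col5a2 and Col6a2, Col16a1, Col4a2 and Col4a1, Col4a5 and Col11a1, and Col5a3 and Col4a6 differed by less than the spread of their levels over the 8 sums. Chains of the collagens typical of cartilage, types II, IX, X and XI, differed widely. Col2a1, Col9a2, Col10a1 and Col11a2 held 171, 239, 68 and 620 counts in all cells together. Col9a3 held 4318 and Col11a1 176631.

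The next comparison asked whether collagen transcripts followed the Venus gates. Toward the brightest gate, 9 collagens fell, and they were 6 fibrillar chains (Col1a1, Col1a2, Col3a1, Col5a2, Col5a3 and Col11a1) and 3 type IV chains (Col4a1, Col4a2 and Col4a6). Another 4 rose, all of other types and all under 10 CPM (Col7a1, Col14a1, Col17a1 and Col20a1). These 13 calls came from 33 genes with enough counts to be tested. The other 7 (Col25a1, Col4a3, Col24a1, Col23a1, Col15a1, Col6a5 and Col13a1, at 2 to 30 counts in all) were not tested. The trend is the log2 change per gate from edgeR's quasi-likelihood test on the 8 sums with the plate as a term, with p-values adjusted over all genes tested by the Benjamini-Hochberg method. Among all 18430 genes tested, 15.4% were called, 8.64% lower and 6.78% higher toward gate 4. Among genes with at least 10 CPM the shares were 25.9%, 15.2% lower and 10.7% higher. Of the 17 collagens at that level 9 were called, every one of them lower. Their median trend was -0.11 log2 per gate, beside -0.01 over all 8618 genes tested at that level. With library totals in place of TMM normalization, the calls over all genes turned from 1593 lower and 1250 higher to 1152 lower and 1575 higher, while the collagens again gave 9 lower and 4 higher calls, against 14.8% of genes called. Without the plate term 7 collagens were called lower and 2 higher, against 9.13% of genes, and with DESeq2 11 lower and 5 higher, against 25.2%. CPM are shares of the counts of a sum, so fewer transcripts per cell and more of other transcripts cannot be told apart. The p-values of the main fit measure only how far the gate differences varied between the 2 plates, after the mean plate difference was removed. This spread is estimated partly from all genes and may be technical.

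**Figure D1:**
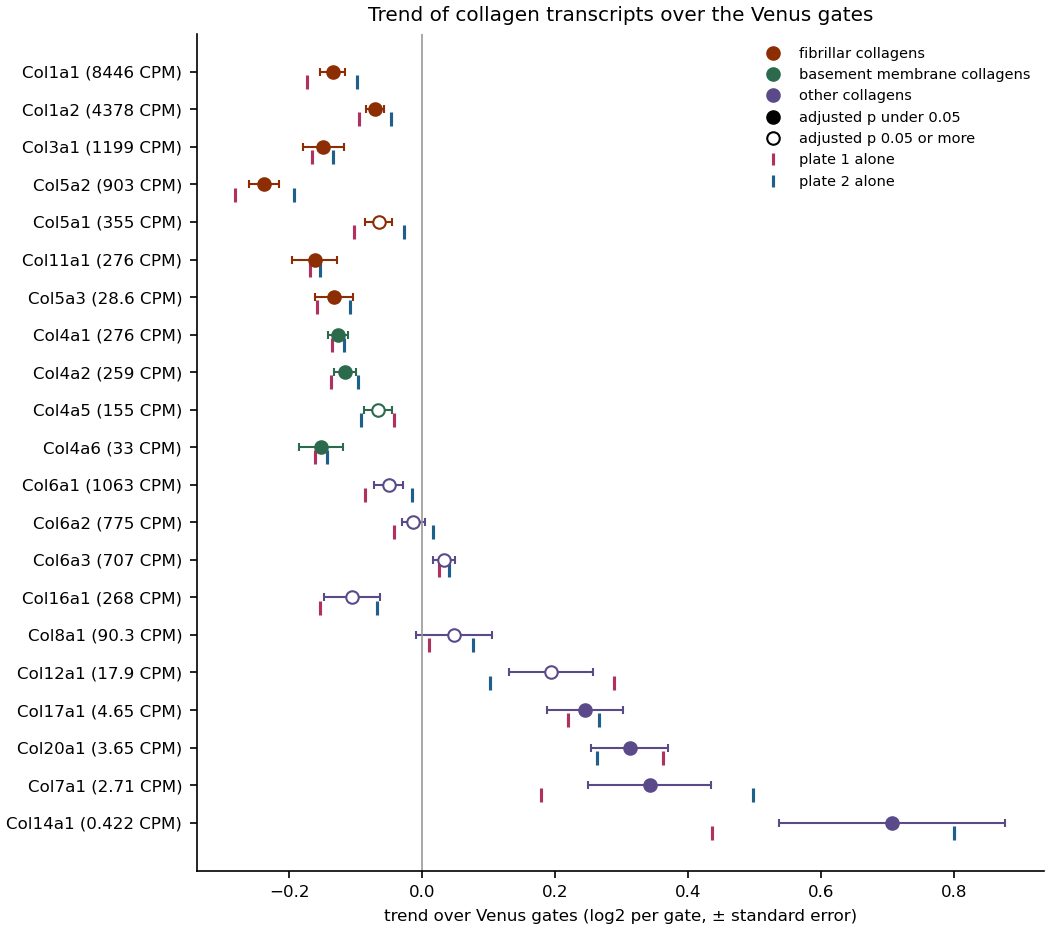
Trend over the Venus gates (horizontal axis, log2 per gate with standard error) for the collagens with at least 10 CPM and the others that were called, grouped by type and sorted by mean level. Filled points have an adjusted p under 0.05, and ticks give each plate alone. The called fibrillar and type IV chains lie between -0.24 and -0.07, and the 4 called genes at the bottom lie between 0.24 and 0.71.

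Col1a1 encodes the alpha1 chain of type I collagen, the main fibril collagen of skin, tendon and bone. On plate 1 its level was 9320, 9277, 8775 and 6756 CPM in gates 1 to 4, and on plate 2 it was 8643, 9306, 8144 and 7348 CPM. Gate 4 was lowest on both plates and did not overlap with any other gate, while gates 1 and 2 overlapped. The trend was -0.14 log2 per gate (SE 0.02, adjusted p = 0.0049, edgeR). Its partner chain Col1a2 had 4512, 4664, 4257 and 3961 CPM on plate 1 and 4331, 4865, 4300 and 4134 CPM on plate 2. Col1a2 was also lowest in gate 4 of each plate, but its range was narrower, with a trend of -0.07 (SE 0.01, adjusted p = 0.0146, edgeR). The ratio of Col1a1 to Col1a2 in CPM was 2.07, 1.99, 2.06 and 1.71 in gates 1 to 4 of plate 1. On plate 2 it was 2.00, 1.91, 1.89 and 1.78. Per kilobase it was 3.91, 3.77, 3.90 and 3.23 on plate 1 and 3.78, 3.62, 3.59 and 3.37 on plate 2. The size of the latter ratio depends on the merged exon lengths used, 6.56 kb for Col1a1 and 12.4 kb for Col1a2. Gate 4 had the lowest ratio on each plate. Without gate 4, Col1a1 was at -0.05 (adjusted p = 0.264) and Col1a2 at -0.03 (adjusted p = 0.561), and without gate 2 Col1a2 was at -0.06 (adjusted p = 0.0576, all edgeR). Col1a2 was also not called with gate as a linear number (-0.07, adjusted p = 0.0969, edgeR) or by limma on the mean CPM of cells (-0.05, adjusted p = 0.0767).

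Col5a2, a chain of type V collagen, which nucleates type I fibrils, had the steepest fall among collagens with at least 10 CPM. It had 1181, 963, 810 and 693 CPM in gates 1 to 4 of plate 1 and 1045, 1011, 781 and 743 CPM on plate 2. The level fell at every step on both plates, and gates 1 and 2 did not overlap with gates 3 and 4. Its trend was -0.24 log2 per gate (SE 0.02, adjusted p = 0.0016, edgeR), and gate 4 had 0.645 of the mean level of gate 1. Col5a1, the chain it pairs with, went from 371 ± 16.7 (SD, n = 2) CPM in gate 1 to 336 ± 10.1 CPM in gate 4, with a trend of -0.07 that was not called (adjusted p = 0.0619, edgeR). The 2 chains therefore moved unequally: the ratio of Col5a1 to Col5a2 per kilobase went from 0.366 to 0.537 on plate 1 and from 0.388 to 0.522 on plate 2. Exons of Col5a1 overlap those of 2 genes on the opposite strand, and the use of strand in counting is not given in the sources used here. The minor type V chain Col5a3 fell from 32.7 ± 0.972 to 25.9 ± 1.55 CPM (trend -0.13, SE 0.03, adjusted p = 0.0220, edgeR). Its trend was -0.16 without gate 4 (adjusted p = 0.103) and -0.12 without gate 1 (adjusted p = 0.214, both edgeR). Col5a2 was called under all 13 alternatives with a test, and Col1a1 and Col4a1 under 12.

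Col11a1, a chain of type XI collagen, which forms the core of thin fibrils, had 344, 324, 306 and 252 CPM in gates 1 to 4 of plate 1 and 255, 312, 204 and 210 CPM on plate 2. Plate 1 was above plate 2 in each gate, and the gates overlapped between plates. The trend within plates was -0.16 log2 per gate (SE 0.03, adjusted p = 0.0197, edgeR), and -0.13 without gate 4 (adjusted p = 0.283). Col3a1, the chain of type III collagen, which is abundant in soft and healing tissue, had another shape. It had 1065, 1392, 1333 and 782 CPM on plate 1 and 1133, 1724, 1205 and 954 CPM on plate 2. Gate 2 was highest and gate 4 lowest on both plates, and gate 4 did not overlap with the others. Its linear trend was -0.15 (SE 0.03, adjusted p = 0.0193, edgeR), and the test for any difference among the gates gave an adjusted p of 0.0114 (edgeR). Without gate 4 the Col3a1 trend turned to 0.10 (adjusted p = 0.304), and without gate 2 it was -0.10 (adjusted p = 0.0831). With gate entered as a linear number it was -0.16 with a larger SE of 0.09 (adjusted p = 0.345, all edgeR), so the linear call did not hold under these settings. Exons of Col3a1 overlap those of Gm47302 on the same strand by 141 bases, so its counts are uncertain by that overlap.

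**Figure D2:**
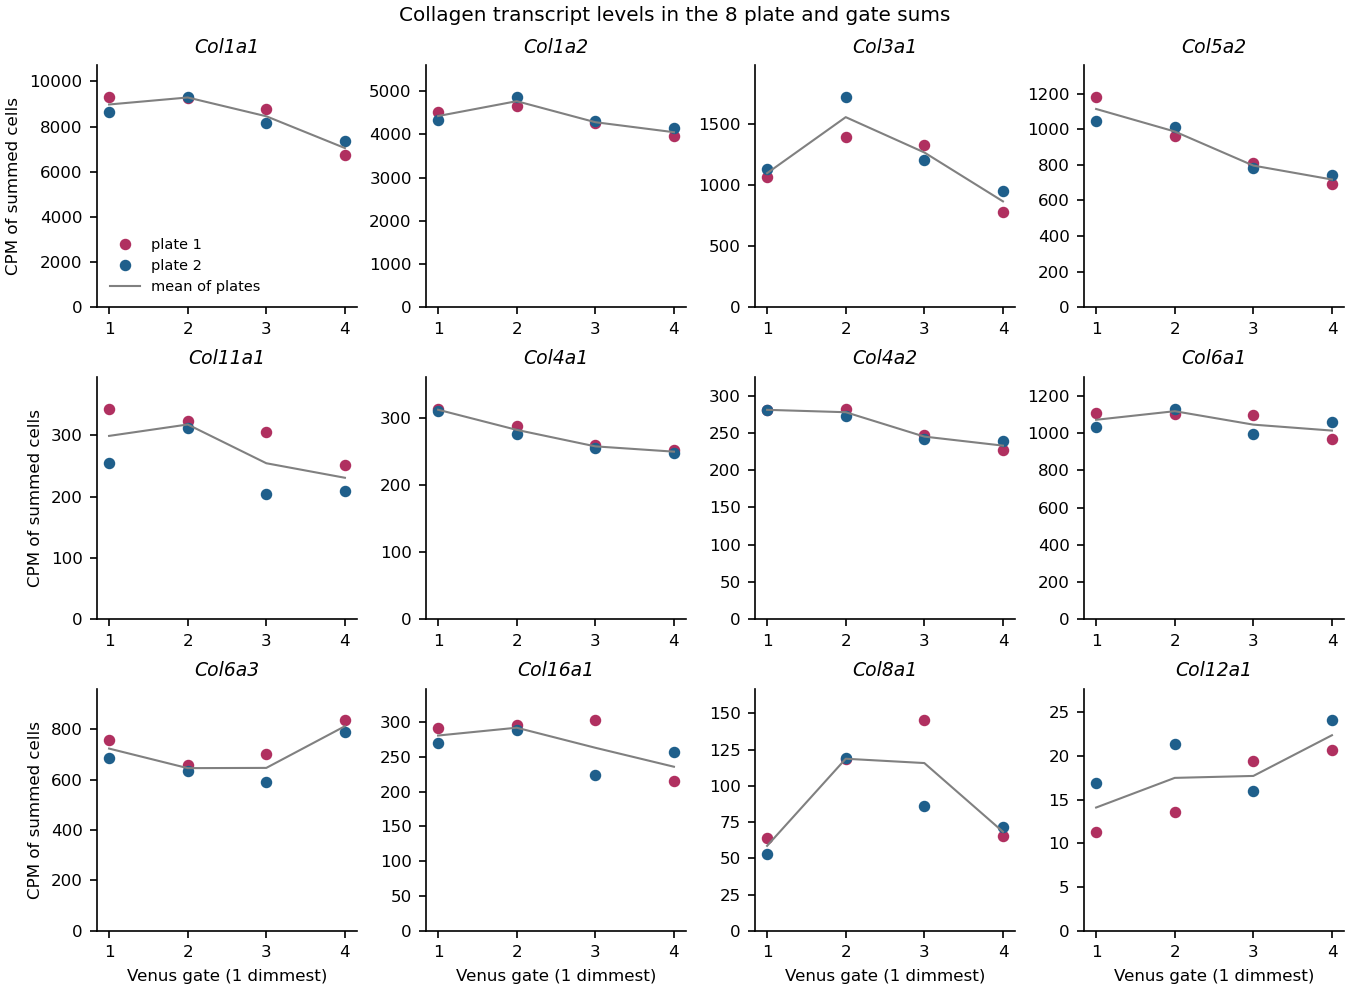
Level of 12 collagens (vertical axis, CPM of summed cells, from 0) in Venus gates 1 to 4 (horizontal axis). Points are the plates and the line their mean, and the vertical scale differs between panels. Col5a2 and Col4a1 go down at every step on both plates, Col3a1 and Col8a1 are higher in gates 2 and 3 than in gate 4, and Col6a3 is highest in gate 4.

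The type IV chains Col4a1 and Col4a2 fell in step and differed little between plates. Col4a1 had 314, 289, 260 and 252 CPM in gates 1 to 4 of plate 1 and 311, 276, 256 and 248 CPM on plate 2. Col4a2 had 281, 283, 248 and 227 CPM on plate 1 and 281, 273, 242 and 239 CPM on plate 2. In both genes, which together build the most common type IV helix, gates 1 and 2 lay above gates 3 and 4 without overlap. Col4a1 had a trend of -0.13 (SE 0.01, adjusted p = 0.0025) and Col4a2 of -0.12 (SE 0.02, adjusted p = 0.0055, both edgeR). The ratio of Col4a1 to Col4a2 per kilobase stayed between 0.898 and 0.991 in all 8 sums. Of the X-linked pair, Col4a6 fell from 39.8 ± 6.57 CPM in gate 1 to 30.5 ± 3.14 CPM in gate 4 (trend -0.15, SE 0.03, adjusted p = 0.0220, edgeR). Its neighbour Col4a5 had 167 ± 0.051 CPM in gate 1, 141 ± 5.04 in gate 3 and 155 ± 19.8 in gate 4, and its trend of -0.07 was not called (adjusted p = 0.0736, edgeR). Col4a3 and Col4a4, which build another type IV helix with Col4a5, held 17 and 138 counts in all. Without gate 4, Col4a1 was still called (-0.14, adjusted p = 0.0459), while Col4a2 was at -0.10 (adjusted p = 0.0799) and Col4a6 at -0.24 (adjusted p = 0.0771). Without gate 1, Col4a6 was at -0.08 (adjusted p = 0.418, all edgeR).

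Among collagens of other types with at least 10 CPM, none of 6 was called along the gates. At an unadjusted p under 0.05 edgeR gave 2, Col16a1 (0.0368) and Col12a1 (0.0164), and DESeq2 called 1, Col12a1. The type VI chains were close to level: Col6a1 had 1072 ± 55.2 CPM in gate 1 and 1014 ± 67.1 in gate 4, and Col6a2 had 773 ± 12.2 and 785 ± 52.7 CPM. Col6a3, the longest chain of type VI collagen, had 759, 657, 701 and 835 CPM on plate 1 and 688, 634, 592 and 788 CPM on plate 2. Gate 4 was highest on both plates, and the gates differed by the test for any difference (adjusted p = 0.0299, edgeR), with a linear trend of 0.03 (adjusted p = 0.225). Without gate 1 the Col6a3 trend was 0.14 and was called (adjusted p = 0.0351, edgeR). Col8a1, a short-chain collagen of vessel walls and other linings, had 64.3, 118, 145 and 65.1 CPM on plate 1 and 52.9, 119, 86.2 and 71.6 CPM on plate 2. The middle gates lay above the outer gates without overlap, with an adjusted p of 0.0264 for any difference (edgeR) and a linear trend of 0.05 (adjusted p = 0.647). Without gate 4 the Col8a1 trend was 0.47 (adjusted p = 0.0445, edgeR). Col12a1 had 11.3, 13.6, 19.4 and 20.7 CPM on plate 1 and 16.95, 21.4, 15.99 and 24.1 CPM on plate 2, with a trend of 0.19 that was not called (adjusted p = 0.0815), though it was without gate 3 (0.21, adjusted p = 0.0217, edgeR). Col16a1, which associates with fibrils and basement membranes, had 281 ± 14.7 CPM in gate 1 and 236 ± 29.6 in gate 4 (trend -0.11, adjusted p = 0.138, edgeR). By the test for any difference among the gates, 10 of the 33 collagens were called, against 8.37% of all genes and 14.7% of genes with at least 10 CPM. Col6a3 and Col8a1 were the 2 that the linear trend did not call.

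The 4 collagens that rose were rare transcripts. Col17a1, a transmembrane collagen of hemidesmosomes, went from 4.12 ± 0.226 CPM in gate 1 to 6.54 ± 0.563 in gate 4 (trend 0.24, SE 0.06, adjusted p = 0.0283). Col20a1, a fibril-associated chain, went from 2.40 ± 0.450 to 4.52 ± 0.086 CPM (trend 0.31, SE 0.06, adjusted p = 0.0131). Col7a1, the anchoring fibril chain that ties the epidermal basement membrane to the dermis, went from 1.78 ± 0.143 to 3.87 ± 0.921 CPM (trend 0.34, SE 0.09, adjusted p = 0.0462, all edgeR). Gates 1 and 4 did not overlap for these 3 genes, but the genes were called on the same sums, so this adds no support. Col17a1 was lowest in gate 2 on both plates, at 3.53 CPM on plate 1 and 2.75 CPM on plate 2. After each cell was thinned to 300000 counts, Col7a1 was detected in 23.2% of cells in gate 1 and 46.9% in gate 4 on plate 1 (95% exact binomial intervals 15.1% to 32.9% and 36.6% to 57.3%). On plate 2 the shares were 23.2% and 51.1%, and the unthinned shares were 30.5% and 57.3% on plate 1 and 33.7% and 62.8% on plate 2. Thinned shares of Col20a1 were 28.4% and 50% on plate 1 and 32.6% and 55.3% on plate 2, and unthinned shares were 37.9% and 61.5%, and 40.0% and 66.0%. For Col17a1 the thinned shares were 41.1% and 53.1% on plate 1 (intervals 31.1% to 51.6% and 42.7% to 63.4%). On plate 2 they were 34.7% and 54.3% (25.3% to 45.2% and 43.7% to 64.6%), and the intervals of gates 1 and 4 overlapped on both plates. These intervals cover the sampling of cells only, and cells are not replicates. The detection shares come from the same cells as the calls, so they give the calls no separate support. The immune gene Ptprc, which fibroblasts should lack, was found in 0 to 1 cells of each gate at the same depth. Col14a1 was called with a trend of 0.71 (SE 0.17, adjusted p = 0.0306, edgeR) from 274 counts in all. Its thinned shares of 2.11% to 10.4% of cells were close to those of the endothelial gene Pecam1, at 4.17% to 10.6%, and its call was lost in 8 of 13 alternatives. Without gate 4, Col17a1 was at 0.10 (adjusted p = 0.616), Col20a1 at 0.46 (0.0707), Col7a1 at 0.34 (0.278) and Col14a1 at 1.13 (0.0557). Without gate 1, Col20a1 was at 0.24 (0.128), Col7a1 at 0.32 (0.235) and Col14a1 at 0.08 (0.884), without gate 2 Col17a1 was at 0.19 (0.0749), and without gate 3 Col14a1 was at 0.66 (0.0598, all adjusted p from edgeR). Exons of Col20a1 and Col7a1 overlap annotated genes on the same strand, so their counts are uncertain by that overlap.

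Gates also differed in cell cycle transcripts. The mean share of counts from 54 G2/M genes was 0.164%, 0.169%, 0.179% and 0.241% in gates 1 to 4 of plate 1, and 0.2415%, 0.248%, 0.171% and 0.258% on plate 2. Gate 4 was highest on each plate, though on plate 2 gates 1 and 2 came near it. In the 380 cells below their plate's median share of S and G2/M transcripts, 3 collagens were called lower and 3 higher, against 3.57% and 3.48% of 16283 genes (7.05% in either direction). Those lower were Col5a2 (-0.16, adjusted p = 0.0034), Col3a1 (-0.16, adjusted p = 0.0155) and Col1a1 (-0.06, adjusted p = 0.0394). Those higher were Col12a1 (0.23, adjusted p = 0.0305), Col6a3 (0.14, adjusted p = 0.0423) and Col17a1 (0.34, adjusted p = 0.0250, all edgeR). Col1a2 had a trend of -0.00 (adjusted p = 0.913), Col11a1 of -0.05 (0.646), Col4a1 of -0.10 (0.154) and Col4a2 of -0.09 (0.116). The share of counts from all collagens was 2.01%, 2.11%, 1.90% and 1.69% in gates 1 to 4 over all cells and 2.11%, 2.26%, 2.04% and 2.04% in the low-cycling cells. These cells gave smaller sums, of 37 to 57 cells each, and the part of cell cycle in the trends was not tested beyond this.

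Genes that serve collagen synthesis were read from 4 lists. Of 18 tested genes for folding and hydroxylation, 1 fell and 1 rose, against 15.4% of all genes called in either direction and 25.9% of those with at least 10 CPM. P3h3, a prolyl 3-hydroxylase family member, went from 76.9 ± 5.52 to 59.8 ± 0.091 CPM between gates 1 and 4 (trend -0.14, adjusted p = 0.0054), and Crtap, a partner in prolyl 3-hydroxylation, from 45.8 ± 1.58 to 60.6 ± 0.283 CPM (0.11, adjusted p = 0.0310, both edgeR). The collagen chaperone Serpinh1 (HSP47) had 939 CPM in gate 1 and 971 in gate 4 (adjusted p = 0.610, edgeR). The median trend of this list was 0.00 log2 per gate, beside 0.00 over all genes tested. In low-cycling cells, where 7.05% of genes were called, P3h3 (adjusted p = 0.0768) and Crtap (adjusted p = 0.0592) were not called. The 2 called there, both higher, were P4hb (0.06, adjusted p = 0.0396), a subunit of prolyl 4-hydroxylase, and Fkbp14 (0.21, adjusted p = 0.0209, all edgeR), a prolyl isomerase.

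Of 9 tested genes for propeptide removal and crosslinking, 5 fell and none rose, against 8.64% and 6.78% of all genes and 15.2% and 10.7% of those with at least 10 CPM, and the median trend was -0.15. With library totals in place of TMM normalization 4 were called lower and 1 higher. Bmp1, which removes the C-propeptide of procollagen, went from 51.4 ± 3.92 to 34.7 ± 5.22 CPM (trend -0.23, adjusted p = 0.0026). The lysyl oxidases Loxl1 and Lox, which start crosslinking, went from 128 ± 1.92 to 90.3 ± 6.90 CPM (-0.21, adjusted p = 0.0094) and from 940 ± 52.7 to 765 ± 26.1 CPM (-0.15, adjusted p = 0.0106). Adamts2, the N-propeptidase, went from 58.7 ± 4.65 to 44.4 ± 2.10 CPM (-0.19, adjusted p = 0.0053), and Pcolce, which enhances Bmp1, from 1723 ± 8.94 to 1590 ± 64.4 CPM (-0.07, adjusted p = 0.0320, all edgeR). In low-cycling cells 3 of this list were called, Bmp1, Lox and Loxl1, against 7.05% of genes.

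Of 7 tested collagen receptors, 3 fell and none rose, with a median of -0.05. The shares were again 8.64% and 6.78% of all genes, and 15.2% and 10.7% of those with at least 10 CPM. With library totals 2 were called, both lower. Itga11, the integrin subunit that binds fibrillar collagen on fibroblasts, went from 30.3 ± 8.25 to 7.93 ± 2.52 CPM (trend -0.69, adjusted p = 8.13e-04), the largest fall in the 4 lists. Ddr2, a receptor kinase for fibrillar collagen, went from 199 ± 7.62 to 169 ± 7.28 CPM (-0.10, adjusted p = 0.0185), and Mrc2, which takes up collagen fragments, from 70.7 ± 1.28 to 63.7 ± 0.402 CPM (-0.08, adjusted p = 0.0285, all edgeR). Itgb1, the beta subunit these integrins share, had 435 and 463 CPM (adjusted p = 0.853). In low-cycling cells Itga11 was the 1 receptor called, against 7.05% of genes.

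Of 12 genes of TGF-beta signalling, a main inducer of collagen genes, 4 fell and 2 rose, with a median of -0.08, against 15.4% of all genes called in either direction and 25.9% of those with at least 10 CPM. Ccn2, a matricellular target, went from 71.6 ± 19.4 to 31.1 ± 2.57 CPM (trend -0.36, adjusted p = 0.0078), the inhibitor Smad7 from 14.2 ± 0.070 to 9.77 ± 1.37 CPM (-0.20, adjusted p = 0.0130), and the ligand Tgfb3 from 105 ± 8.09 to 80.1 ± 11.5 CPM (-0.17, adjusted p = 0.0336). The receptor Tgfbr1 went from 20.9 ± 0.516 to 15.4 ± 1.11 CPM (-0.17, adjusted p = 0.0099), while Ltbp1, which holds latent TGF-beta in the matrix, rose from 28.6 ± 6.04 to 41.1 ± 2.54 CPM (0.14, adjusted p = 0.0138, all edgeR). The ligand Tgfb2, at a mean of 1.77 CPM, was the other gene that rose. In low-cycling cells 3 of the 12 were called (Tgfb2, Tgfb3 and Smad7), against 7.05% of genes, and Ccn2 (adjusted p = 0.188), Ltbp1 (0.166) and Tgfbr1 (0.161) were not. Without the plate term Ccn2 (adjusted p = 0.0935), Ltbp1 (0.0942) and Tgfb3 (0.0565, all edgeR) were not called.

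**Figure D3:**
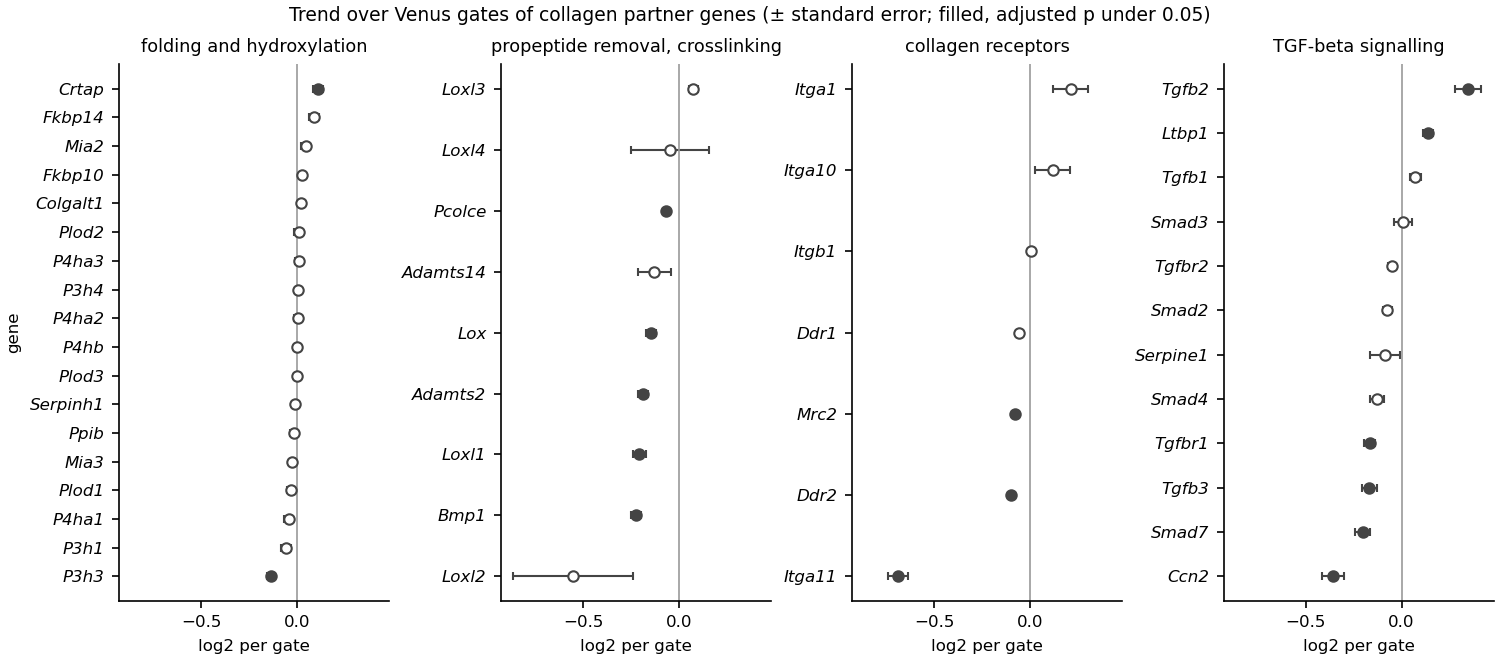
Trend over the Venus gates (horizontal axis, log2 per gate with standard error) of each tested gene in 4 lists of collagen partners, filled where the adjusted p was under 0.05. Called folding genes number 1 lower and 1 higher, processing genes 5 lower, receptors 3 lower, led by Itga11 at -0.69, and TGF-beta genes 4 lower and 2 higher.

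Single cells varied far more than the gates. Col1a1 was detected in all 762 cells, from 574 to 21382 CPM with a coefficient of variation (CV) of 0.451, and Col1a2 had a CV of 0.342. Col3a1 was also detected in every cell, but ran from 0.905 to 10596 CPM with a CV of 0.996, and its 90th percentile was 17.998 times its 10th, against 3.48 times for Col1a1. Col11a1 was detected in 97.6% of cells with a CV of 0.784, and Col8a1 in 94.5% with a CV of 1.24 and a 90th percentile 44.9 times the 10th. Col12a1 was detected in 68.1% of cells with a CV of 1.59. The low-variation genes were Col1a2, Col6a2 (CV 0.376), Col6a1 (CV 0.384) and Col5a1 (CV 0.429). Part of the spread of rare transcripts is counting error, which the CV includes.

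**Figure D4:**
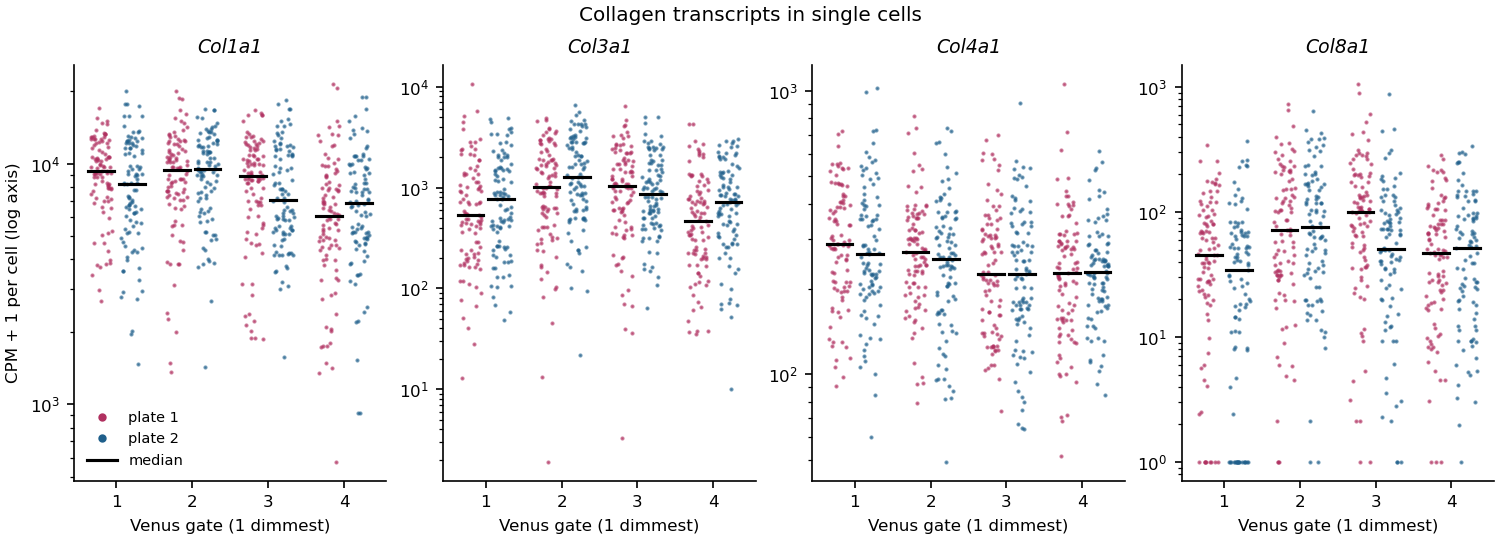
CPM + 1 per cell (log axis) of Col1a1, Col3a1, Col4a1 and Col8a1 in Venus gates 1 to 4. Points are cells, coloured by plate, and bars are medians. Col1a1 lies between 574 and 21382 CPM, and Col3a1 spreads from 0.905 to 10596 CPM within the same cells.

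Across cells, the 17 collagens with at least 10 CPM were compared by Spearman's rho within each plate, over 383 cells on plate 1 and 379 on plate 2. These values describe cells that share a plate and a library preparation, and no test was made. The median over all 136 pairs was 0.234 on plate 1 and 0.243 on plate 2. The 3 highest pairs on each plate were chains of the same helix: Col4a1 with Col4a2 at 0.804 and 0.826, Col6a1 with Col6a2 at 0.764 and 0.824, and Col1a1 with Col1a2 at 0.687 and 0.765 on plates 1 and 2. Col5a1 with Col5a2 had 0.654 and 0.554, and Col4a5 with Col4a6 0.548 and 0.519. Several pairs from different helices lay as high, such as Col1a2 with Col11a1 at 0.613 and 0.638 and Col1a1 with Col5a2 at 0.584 and 0.662. Not every pair within a helix was high. Col6a3, also a chain of type VI collagen, had 0.362 and 0.409 with Col6a1 and 0.379 and 0.399 with Col6a2. With Col16a1, of another type, it had 0.409 and 0.4595. In GENCODE M21 the start sites of Col4a1 and Col4a2 lie 0.021 kb apart on opposite strands of chromosome 8, those of Col4a5 and Col4a6 1.31 kb apart on opposite strands of chromosome X, and those of Col6a1 and Col6a2 103 kb apart on chromosome 10 with 1 annotated gene between them. The printed CCAAT site of Col4a1 lies beside that shared start region. Col1a1 and Col1a2 lie on chromosomes 11 and 6, and Col3a1 and Col5a2, neighbours on chromosome 1 with start sites 192 kb apart, had 0.129 and 0.284. Exons of Col4a1 and Col4a2 overlap by 22 bases on opposite strands.

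Among the 7 fibrillar chains, the 21 pairs had medians of 0.280 and 0.300. Col1a1, Col1a2, Col5a1, Col5a2 and Col11a1 formed a group, picked after the values were seen, whose 10 pairs ran from 0.455 to 0.687 on plate 1 and from 0.453 to 0.765 on plate 2, with medians of 0.580 and 0.635. Col3a1 and Col5a3 stood outside it. The highest value of Col3a1 with any of the 16 other genes was 0.298 on plate 1 and 0.300 on plate 2, and its values with Col4a6 were -0.201 and -0.065. Col8a1, which is not fibrillar, had 0.502 and 0.541 with Col1a1 and 0.487 and 0.529 with Col11a1. Type IV chains among themselves had medians of 0.471 and 0.510, and with the group of 5 fibrillar chains 0.253 and 0.358. Ranked within gates, the medians of the group of 5 were 0.560 and 0.619, and in low-cycling cells 0.475 and 0.524.

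**Figure D5:**
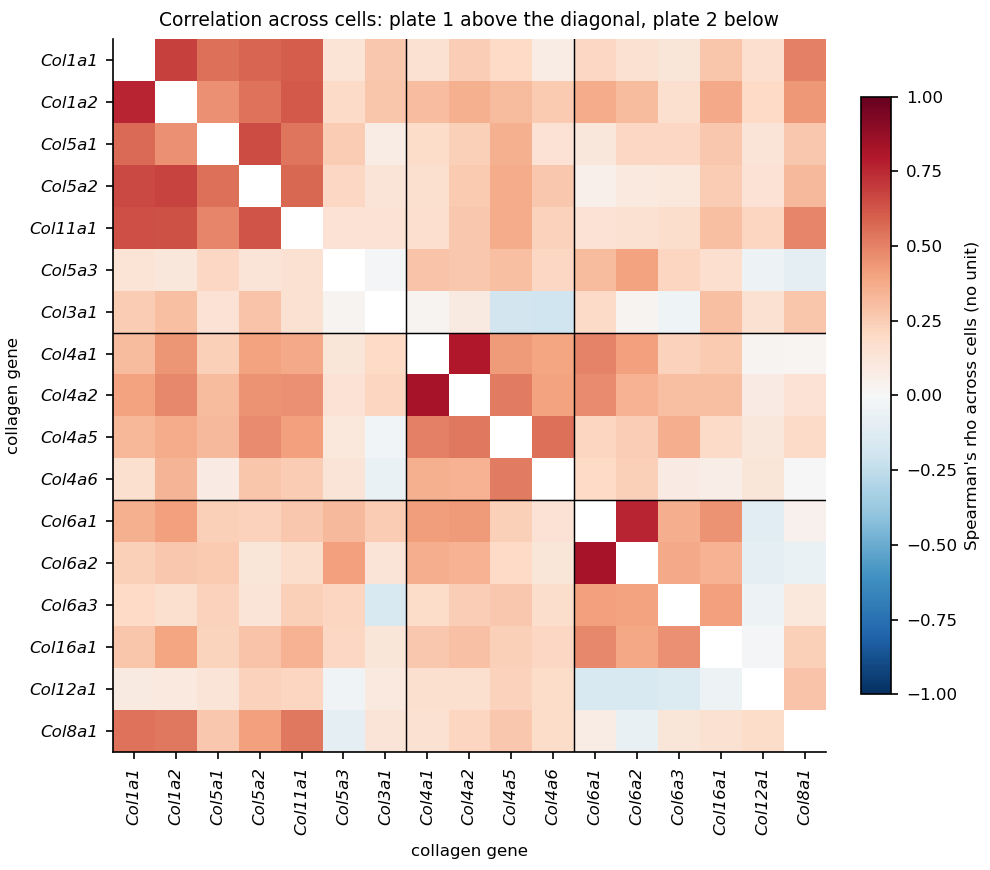
Spearman's rho across cells (colour, no unit) between 17 collagens, with plate 1 above the diagonal and plate 2 below, and lines parting fibrillar, type IV and other chains. Dark squares mark Col4a1 with Col4a2 (0.804 and 0.826), Col6a1 with Col6a2 (0.764 and 0.824) and the 5 fibrillar chains at the upper left, while the Col3a1 row is pale.

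Each gene was also set against other measures of the same cells. With the summed share of S and G2/M transcripts, Col1a2 had rho of -0.327 and -0.448 on plates 1 and 2, Col4a1 -0.311 and -0.434, Col3a1 -0.306 and -0.387, and Col1a1 -0.225 and -0.320. Col6a3 had -0.013 and -0.043. With Venus fluorescence, Col5a2 had -0.355 and -0.269 and Col1a1 -0.275 and -0.168, while Col7a1 had 0.159 and 0.247 and Col20a1 0.198 and 0.187. With the mitochondrial share of counts, Col3a1 had 0.279 and 0.327 and Col1a1 0.009 and 0.076. With the total count of the cell, Col1a1 had 0.068 and -0.068 and Col3a1 0.077 and -0.023.

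Among 8625 genes with at least 10 CPM as the mean over single cells (8618 by the mean of the 8 sums), the genes outside the family whose pattern across cells was most like Col1a1 included Fstl1 (mean rho over plates 0.601), Bgn (0.574), Ptn (0.555), Fbln2 (0.540), Serpinh1 (0.520), Pcolce (0.516), Itga11 (0.514), Sparc (0.497) and Il11ra1 (0.477). Bgn is a proteoglycan that binds collagen, Fbln2 an extracellular matrix protein, and Sparc a collagen-binding matricellular protein. Of these, Bgn fell along the gates by 0.52 log2 per gate (adjusted p = 1.36e-04) and Fstl1 by 0.30 (adjusted p = 7.34e-04), whereas Sparc rose by 0.08 (adjusted p = 0.0047, all edgeR). Most like Col4a1 were Cst3 (0.554), Fn1 (0.520), Cpq (0.519), Cpe (0.518), Mmp2 (0.516), Itm2b (0.507), Matn2 (0.466), Tapbp (0.451), Wls (0.430) and mt-Cytb (0.429). Fn1 encodes fibronectin, and Mmp2 a gelatinase that cuts type IV collagen. No gene was named for both Col1a1 and Col4a1.

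Plates 1 and 2 are 1 sample each, so their difference has no test, and it cannot be told apart from the iRFP sort. Col11a1 had 307 CPM on plate 1 and 243 on plate 2, a ratio of 1.26, and was higher on plate 1 in 4 of 4 gates. Its exact Poisson intervals of 305 to 309 and 242 to 245 CPM cover counting error only. Col8a1 had 99.8 and 82.2 CPM, a ratio of 1.21, but was higher on plate 1 in only 2 of 4 gates. Col6a3, Col4a5 and Col4a1 were higher on plate 1 in all 4 gates at ratios of 1.09, 1.09 and 1.02. Col12a1 had a ratio of 0.834 and Col4a6 of 0.856. The median log2 ratio of the 17 collagens, plate 1 over plate 2, was 0.02, beside -0.06 over 8618 genes with at least 10 CPM.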

How the data were processed

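FLASH-seq counts of 768 sorted NIH3T3 reporter cells on 2 plates were analysed. The deposited count table holds raw counts per gene and cell, whole numbers that the authors did not normalize, as the cell totals differ. The deposited sorting record gives fluorescence intensity per cell in arbitrary units, with the sort gate and well. Per the submitters' processing notes, STAR 2.7.11a, SAMtools, bedtools and HTSeq were used with GRCm39 (mm39), with no role or order stated. The annotation, the use of strand and molecular identifiers are not given in the sources used here. Reads copied by PCR do not stand for separate molecules, so the intervals cover counting error only.

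Symbols came from the supplied name table by Ensembl identifier, which matched 24902 of 33757 features, and features without a symbol held 1.10% of counts. Exon lengths, overlaps and neighbours came from GENCODE M21 (GRCm38), another build than the counts. The exon length of a gene was that of all its annotated exons merged over transcripts. Cells needed at least 1000 genes, at least 0.1 of the plate median total and at most 25% mitochondrial counts. No cell name occurred on both plates, wells held 1 sorted cell each, and no doublet caller was run. Gates were ordered by median Venus intensity within each plate.

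Counts were summed per plate and gate, because cells are not replicates, and tested with edgeR 4.0.16 (quasi-likelihood F-test, TMM, filterByExpr) with gate and plate as terms, 3 residual degrees of freedom and Benjamini-Hochberg adjustment at 0.05. The trend contrast weighted outer gates by 3 and inner gates by 1, divided by 10. CPM values use the total of each sum. Plate-alone trends have no test. On simulated counts over 18430 genes for the gate trend, 89% of 100 genes changed by 0.2 log2 per gate were called. So were 100% of those changed by 0.4, along with 20 unchanged genes. The changed genes were drawn from those with an average of at least 3 log2 CPM. The shares therefore do not cover rarer genes or trends smaller than 0.2. Named genes were collagens with at least 10 CPM or called along the gates, called partner genes with at least 10 CPM (at most 6 per list), and the 10 genes most like Col1a1 and Col4a1 across cells. Other genes named were chosen after their values were seen. Alternatives used limma 3.58.1, DESeq2 1.42.0, library totals, other cell and gene filters, thinning, no plate term and left-out gates or plates. The members and lists were chosen with earlier results of these data known. Tll1, Tll2, Adamts3 and Kdr were not analysed here. Of the 10 genes most like Col1a1, 1 is not reported here.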

Additional observations from a re-analysis of the deposited data

How the results depend on the processing

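The count of collagens lower toward gate 4 (9) fell to 2 without gate 4 and to 3 in cells low in cycling transcripts. The count of higher collagens (4) was 2 without the replicate block (no plate term), 2 with gate as a linear number and 1 without gate 4. The count differing among gates in any direction (10) was 2 without the replicate block and 2 in low-cycling cells. Over all genes this count also fell, from 1542 of 18430 to 490 of 18430 without the block and 399 of 16283 in low-cycling cells. No share over all genes is given for the fits without gate 4 or with gate as a linear number. Of the partner lists, called processing genes went from 5 to 3 and receptors from 3 to 1 in low-cycling cells, and TGF-beta genes from 6 to 3 both there and without the replicate block. The median trend of the 17 collagens (-0.106) was -0.0576 without gate 4 and -0.0382 in low-cycling cells, and ran from -0.1357 to -0.0916 with 1 plate left out. The trend of Col3a1 turned to 0.10 without gate 4. The median plate ratio (log2 0.02) turned to -0.0303 in low-cycling cells. Mean rho over plates fell from 0.290 to 0.194 for fibrillar pairs in low-cycling cells, and from 0.239 to 0.179 there and 0.230 with ranks within gates for all pairs. DESeq2 called 25.2% of genes tested and the fit without the plate term 9.13%. The cause of these shifts was not tested. Below 10 CPM, 7 of 23 collagens had too few counts to test. Whether depth or absence of the transcript lay behind this was not tested.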
